A study of Ricinus communis with 6 samples.

Results

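The genes described here were lower in all 3 dwarf libraries of castor bean (Ricinus communis) than in all 3 high-stalk libraries. A gene was chosen by its values in these libraries, on 2 conditions. Each Zhuansihao library had at least 2 FPKM (fragments per kilobase of transcript and per mapped fragments of the library, so that levels are scaled to gene length and library size), called the level floor below. The lowest Zhuansihao FPKM plus 1 was also at least 1.5 times the highest 071113 FPKM plus 1, and this quotient is called the ratio. Of 18875 rows in the table, 13967 reached the level floor and 68 met both conditions, which is 0.487% of the rows at the floor. Because the dwarf and high-stalk values selected the genes, their difference between the varieties is a description and carries no test.

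Poly(A) RNA was sequenced from main-stem 5th internodes of field-grown plants with 8 to 10 leaves, with about 6 plants dissected. Libraries D1, D2 and D3 came from the short-stalk variety 071113, called dwarf. Libraries L1, L2 and L3 came from Zhuansihao, a high-stalk variety whose name is spelled Zhansihao in the genotype label. Whole varieties were compared, no plant was treated, and the study's methods call the 3 libraries of a variety biological replicates. The labels do not say which plants went into which library. In such bulk tissue, fewer cells of a type and less RNA per cell cannot be told apart.

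Library D2 stood apart from the other dwarf libraries, and the study left it out of its own test. What sets it apart was not tested, and neither was whether its label holds, so lower in all 3 dwarf libraries is meant here as the libraries are labelled. Over the 13967 rows at the level floor, the correlation across genes of log2(FPKM + 1) was 0.758 for D2 with D1 and 0.776 for D2 with D3, but 0.975 for D1 with D3. D2 was closest to L1, with a correlation of 0.950. Correlations across genes describe these libraries only, since genes are not replicates. The 68 genes are those whose lower level D2 shared, and what the set would be without D2 is given with the held-out libraries. FPKM sums per library lay between 585381 and 600050, and the depth relative to D1 lay between 0.868 and 1.08.

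Internodes lengthen by cell division and then by expansion of the cells formed, after which vascular tissue lignifies and growth stops. Auxin is a central signal for expansion in stems, and SAUR (small auxin-up RNA) genes are among the transcripts that auxin induces quickly. Expansins are wall proteins that loosen the cell wall while it extends. Of the 68 genes, 1 has a name in the sources used here, the SAUR gene LOC8260421, and the other 67 are given by their gene ID with no role, since no source used here pairs their IDs with a description. By symbol, 64 of the 68 matched the RefSeq gene table of assembly ASM1957865v1. LOC8281616, LOC8269507, LOC8281621 and LOC8266436 had no match.

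The ratio ranged between 1.51 and 28.1 with a median of 1.86, so most of the genes lay close to the threshold. It was at least 2 for 26 genes, at least 3 for 8, at least 5 for 3 and at least 10 for 2. In level the genes covered the range of stem transcripts. The lowest Zhuansihao value was under 10 FPKM for 27 genes, between 10 and 100 FPKM for 32 and at least 100 FPKM for 9, and its median of 14.6 FPKM was near the 17.5 FPKM of all rows at the floor. On the log2(FPKM + 1) scale, the mean of 071113 minus the mean of Zhuansihao had a median of -1.56 over the 68 genes and ran between -5.07 and -0.85, beside a median of -0.06 over all rows at the floor. The 68 genes together held 0.200% of the FPKM sum in D1, 0.289% in D2 and 0.234% in D3. Their share was 0.751%, 0.978% and 0.769% in L1, L2 and L3.

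**Figure D1:**
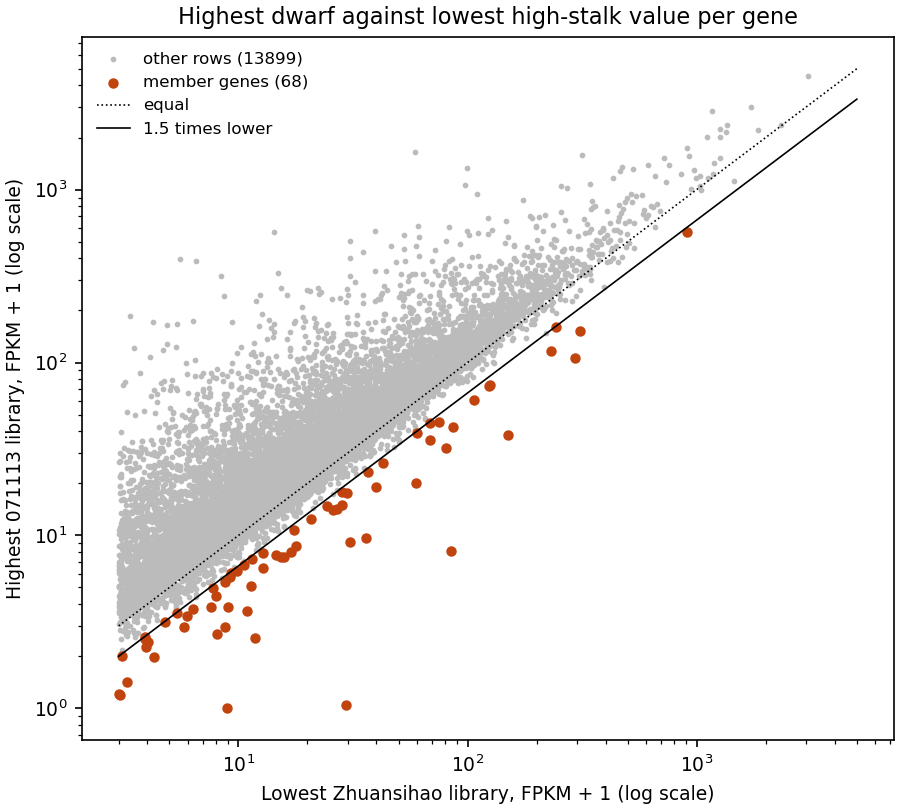
Each point is 1 of the 13967 rows with at least 2 FPKM in every Zhuansihao library, with its highest 071113 value on the vertical axis and its lowest Zhuansihao value on the horizontal axis (both FPKM + 1, log scales). The 68 chosen genes lie on or under the solid line, where the dwarf value is 1.5 times lower, and 3 of them, with ratios of at least 5, lie far under it.

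The opposite pattern was counted in the same way. With the varieties exchanged in both conditions, 116 of 13465 rows were at least 1.5 times higher in every dwarf library, 0.861% of the rows at that floor. Without the 1.5 times margin, every dwarf library lay below every Zhuansihao library in 1114 rows, 7.98% of the 13967, and the 68 genes are part of these by construction. Which direction was more frequent depended on single libraries: without D2, 1038 rows were lower and 928 higher, and without L1, 257 were lower and 216 higher. The difference between the directions was not tested.

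A few genes were close to silent in the dwarf internode. LOC107262380 had the largest ratio, with 0 FPKM in D1, 0 in D2 and 0.0471 in D3, against 31.4, 40.2 and 28.4 FPKM in L1, L2 and L3. LOC8265919 was listed at 0 in D1, D2 and D3, against 10.5, 10.2 and 7.95 FPKM in L1, L2 and L3, and was the 1 gene at 0 in every dwarf library. Within Zhuansihao, the mean was 33.4 ± 6.14 FPKM for LOC107262380 and 9.53 ± 1.38 FPKM for LOC8265919 (SD, n = 3 each). No quotient of the variety means is given for either, because FPKM holds no read count from which a floor could be set. Their ratios rest on the 1 added to each FPKM. With 0.5 added instead, the ratio of LOC107262380 went from 28.1 to 52.8 and that of LOC8265919 from 8.95 to 16.9.

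Another 4 genes stayed under 1 FPKM in every dwarf library, and these were picked out after their values were seen. LOC8265720 had 0.0401, 0.192 and 0.0728 FPKM in the dwarf libraries, against 2.81, 2.92 and 2.04 FPKM in L1, L2 and L3. LOC8262034 had 0.213, 0.124 and 0.0695 FPKM in D1, D2 and D3, against 2.72, 2.19 and 2.02 FPKM in the high-stalk libraries. These had dwarf levels near 0, but their Zhuansihao levels were also only just above the level floor. LOC8269715, at 0.380 ± 0.0460 FPKM in 071113 and 2.70 ± 0.486 FPKM in Zhuansihao, and LOC8266436, at 0.845 ± 0.197 FPKM in 071113 and 3.84 ± 0.906 FPKM in Zhuansihao (SD, n = 3 each), were likewise low in both varieties.

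Next to LOC107262380, the widest gap belonged to LOC8270280. It had 6.66, 7.16 and 4.99 FPKM in D1, D2 and D3, against 83.9, 253 and 166 FPKM in L1, L2 and L3. The Zhuansihao mean was 26.8 times the 071113 mean, and D2 lay with D1 and D3. The high-stalk libraries themselves differed widely, so the size of the gap depended on the library: the ratio of 10.4 became 20.5 without L1.

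The remaining genes among the 10 largest ratios were detected in every library, though LOC8285125 and LOC8269624 were under 1 FPKM in D1. LOC8285125 had 0.412, 1.35 and 1.54 FPKM in the dwarf libraries, against 10.8, 16.1 and 33.0 FPKM in the high-stalk libraries. LOC8286422 had 15.6, 37.1 and 23.9 FPKM in D1, D2 and D3, against 177, 194 and 148 FPKM in L1, L2 and L3. In the first of these D1 was the low dwarf library, and in LOC8286422 D2 was the high one, with a ratio of 3.93 that became 6.01 without D2. LOC8260996 had 8.67, 2.38 and 3.28 FPKM in the dwarf libraries, against 35.2, 84.1 and 103 FPKM in the high-stalk libraries. LOC112536839 had 1.37, 7.64 and 8.20 FPKM in the dwarf libraries, against 89.6, 82.1 and 29.6 FPKM in the high-stalk libraries. A single library set the edge of the gap in both: the ratio of LOC8260996 was 3.74 in all, 8.47 without D1 and 8.80 without L1, and that of LOC112536839 was 3.32 in all and 9.03 without L3.

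LOC8269624 was uneven within Zhuansihao, with 0.365, 1.94 and 0.675 FPKM in the dwarf libraries, against 30.3, 7.74 and 31.4 FPKM in L1, L2 and L3. Its ratio was 2.97 in all, 5.22 without D2 and 10.6 without L2. LOC8286454 was steadier, at 1.11, 1.18 and 1.68 FPKM in D1, D2 and D3, against 7.90, 12.3 and 7.05 FPKM in L1, L2 and L3. In LOC8285172 the dwarf libraries lay close together at 19.1, 17.4 and 16.2 FPKM, against 80.0, 197 and 58.7 FPKM in the high-stalk libraries, so that nearly all of its spread was on the high-stalk side.

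Among the 10 genes with the highest lowest-Zhuansihao level, the most abundant was LOC8265897. It had 264, 569 and 357 FPKM in D1, D2 and D3, against 908, 988 and 1032 FPKM in L1, L2 and L3. Its ratio of 1.59 was 2.54 without D2. LOC8265899, the next gene to it in RefSeq order, had 45.7, 151 and 46.2 FPKM in the dwarf libraries, against 379.8, 397 and 308 FPKM in the high-stalk libraries, with a ratio of 2.03 that became 6.54 without D2. In both genes D2 was the highest dwarf library and still lay below every Zhuansihao library.

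LOC8283799 had 105, 80.0 and 59.1 FPKM in the dwarf libraries, against 295, 663 and 373 FPKM in L1, L2 and L3. LOC8278269, which was nearly at the threshold, had 160.1, 127 and 156 FPKM in D1, D2 and D3, against 434, 309 and 242 FPKM in the high-stalk libraries. LOC8271407 had 62.4, 116 and 78.3 FPKM in the dwarf libraries, against 299, 242 and 229.7 FPKM in the high-stalk libraries. L2 was the high library of LOC8283799 and L1 that of the other two. LOC8261733 was among the most even of the abundant genes, at 73.4, 71.0 and 52.4 FPKM in D1, D2 and D3, against 145, 129 and 124 FPKM in L1, L2 and L3. LOC8264364, LOC8265588 and LOC8264529 completed the group, with Zhuansihao means of 2.83, 3.69 and 5.32 times the 071113 mean. In LOC8265588 and LOC8264529 the dwarf libraries were spread more widely, with CVs (SD as a percentage of the mean) of 43.8% and 59.2% in 071113 against 27.4% and 32.7% in Zhuansihao.

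At the ratio threshold, the genes just inside were LOC8265756, LOC8278269 and LOC8270378, each with a ratio of 1.51, and the rows just outside were LOC8289076 at 1.498, LOC8273361 at 1.49 and LOC8278139 at 1.49. LOC8265756 had 2.57, 2.42 and 1.53 FPKM in the dwarf libraries, against 14.9, 4.98 and 4.37 FPKM in the high-stalk libraries. LOC8289076, left out, had 6.16, 7.38 and 6.23 FPKM in the dwarf libraries, against 11.6, 14.6 and 12.95 FPKM in the high-stalk libraries. Both show complete separation of the varieties, so the threshold divides a continuous range. At the level floor, LOC8262034 was just inside with a lowest Zhuansihao value of 2.02 FPKM and LOC8258132 just outside with 1.92 FPKM, both named after their values were seen.

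**Figure D2:**
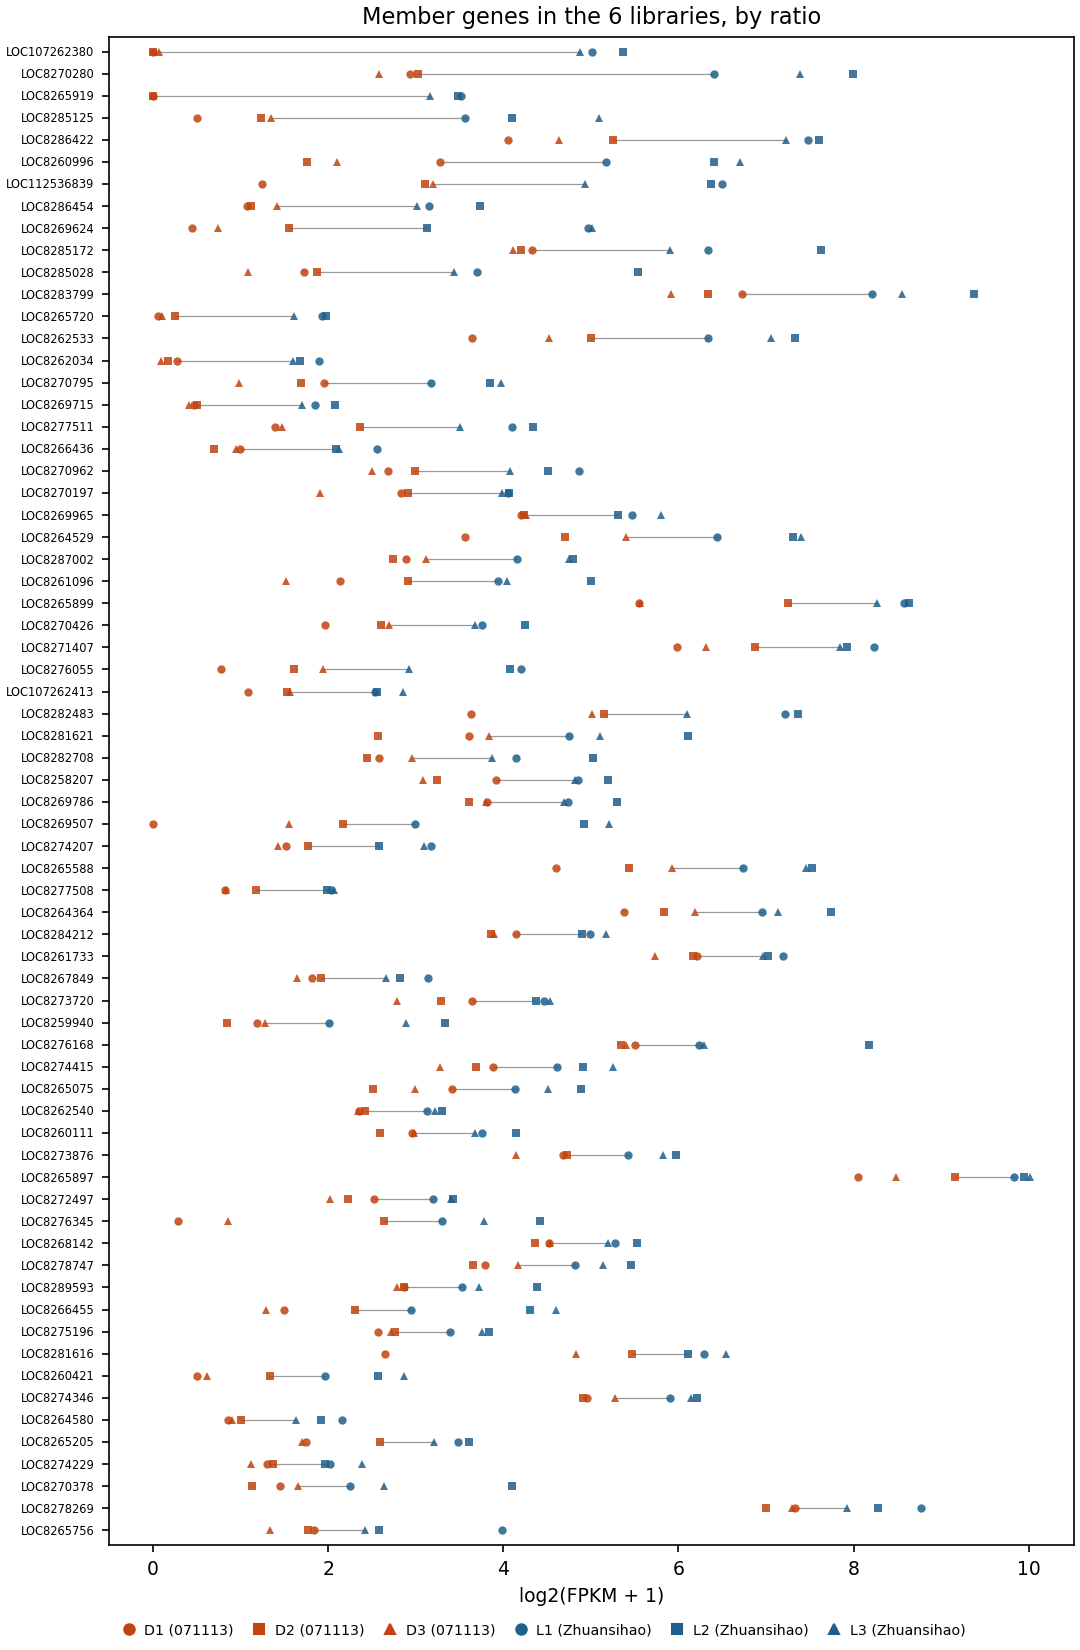
Each line is 1 of the 68 genes, ordered by ratio, with its level in the 3 libraries of 071113 and the 3 of Zhuansihao on the horizontal axis (log2(FPKM + 1)). The grey bar joins the highest dwarf and the lowest high-stalk library, and it is longest for LOC107262380, LOC8270280 and LOC8265919.

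The 41 genes outside these groups were mostly of modest level, with ratios between 1.51 and 2.55. Their mean level ran between 0.102 and 41.7 FPKM in 071113, with a median of 5.14 FPKM, and between 2.31 and 146 FPKM in Zhuansihao, with a median of 15.4 FPKM. The Zhuansihao mean was at least 2 times the 071113 mean in 39 of the 41 and at least 5 times in 10. As examples picked after their values were seen, LOC8282483 had 11.4, 34.6 and 31.3 FPKM in D1, D2 and D3, against 147, 164 and 67.3 FPKM in L1, L2 and L3. LOC8269965 had 17.4, 17.8 and 18.1 FPKM in the dwarf libraries, against 43.4, 38.8 and 54.8 FPKM in the high-stalk libraries. In LOC8269965 the dwarf libraries were nearly equal, with a CV of 1.81% in 071113 and 18.0% in Zhuansihao.

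The libraries of a variety spread widely in these genes. The median CV over the 68 genes was 28.8% in 071113 and 24.2% in Zhuansihao, beside 22.0% in 071113 and 13.8% in Zhuansihao over all rows at the floor. The highest dwarf library was at least 2 times the lowest in 29 genes, and the highest Zhuansihao library was at least 2 times the lowest in 22. Neither count was made over all rows at the floor, so neither is read as particular to the set. In the gene LOC8262540, named after its values were seen, both CVs were under 10%, with 4.17 ± 0.159 FPKM in 071113 and 8.30 ± 0.533 FPKM in Zhuansihao (SD, n = 3 each). It was the 1 gene of the 68 with this property.

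Within the varieties, D2 and L2 were the libraries most often high alone. On FPKM + 1, D2 was at least 1.5 times both other dwarf libraries in 12 genes and at least 1.5 times under both in 1. D1 was that far under both other dwarf libraries in 11 genes and D3 in 4. Among the high-stalk libraries, L2 was at least 1.5 times both others in 12 genes, and L1 was that far under both others in 11. These counts were not made over all rows at the floor. D2 was the highest dwarf library in 29 of the 68 genes (42.6%), beside 47.1% of the rows at the floor, so this was not particular to the set. L2 was the highest Zhuansihao library in 38 of the 68 genes (55.9%), beside 32.5% of the rows at the floor. In LOC8276168, picked after its values were seen, much of the difference in means lay in L2: it had 44.3, 39.5 and 41.3 FPKM in the dwarf libraries, against 74.4, 288 and 77.1 FPKM in L1, L2 and L3. The rule reads the lowest Zhuansihao and the highest dwarf library, so a library high alone in Zhuansihao does not affect whether a gene was chosen, whereas D2 high alone lowers the ratio.

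The SAUR gene LOC8260421 was one of the low genes of the set. It had 0.418, 1.53 and 0.529 FPKM in D1, D2 and D3, against 2.90, 4.93 and 6.29 FPKM in L1, L2 and L3, and its mean was 0.826 ± 0.614 FPKM in 071113 and 4.71 ± 1.70 FPKM in Zhuansihao (SD, n = 3 each). D2 lay above the other dwarf libraries and L1 below the other high-stalk libraries, and its ratio of 1.54 was 2.55 without D2 and 2.34 without L1. Another SAUR gene, LOC8259049, was outside the set, with 2.20, 30.8 and 2.53 FPKM in the dwarf libraries, against 27.0, 2.89 and 3.74 FPKM in the high-stalk libraries. In that gene the high libraries were D2 and L1, 1 of each variety.

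Of the 33 genes in the table that the study names, LOC8260421 was the 1 in the set and the 1 with every dwarf library below every Zhuansihao library, a pattern found in 7.00% of all rows. The study picked these genes from these libraries, so their direction is not independent evidence. D1 and D3 lay below every Zhuansihao library in 19 of the 33, a pattern found in 30.1% of all rows. These were 8 of the 10 auxin genes, all 8 cell cycle genes and the 3 expansins. With D2 included, the count was 1 of the auxin genes, 0 of the cell cycle genes and 0 of the expansins. EXPA4 (LOC8282200), an expansin, had 25.4, 180.7 and 4.80 FPKM in D1, D2 and D3, against 106, 64.5 and 59.7 FPKM in L1, L2 and L3, so its highest level of all was in D2. The 5 genes of lignin synthesis, PAL (phenylalanine ammonia-lyase, the first enzyme of the pathway) and peroxidases (which polymerise the lignin monomers), had D1 and D3 above every Zhuansihao library in all 5, a pattern found in 24.4% of all rows, and D2 above every Zhuansihao library in 3. D2 was also above every Zhuansihao library in 5 of the 8 cell cycle genes and in 17 of all 33, so this was not particular to lignin genes. It was so in 32.8% of the rows with at least 2 FPKM in D1 and D3. Most of the cell cycle genes were under that level in D1 and D3, so that share covers an unlike set of rows. The share over all rows was not computed. Actin was even, at 60.9, 55.4 and 55.7 FPKM in the dwarf libraries, against 60.3, 60.2 and 55.8 FPKM in the high-stalk libraries.

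In limma's moderated test with Benjamini-Hochberg adjustment over all genes, 9 of the 10 auxin genes were tested. Over the 6 libraries none passed an adjusted p of 0.05 in either direction, with 2 lower and 1 higher at an unadjusted p under 0.05, beside 4.17% of all genes tested lower and 5.14% higher. Without D2, 3 were lower at an adjusted p under 0.05, none of them past a log2 fold change of -2, and 1 was higher, beside 6.17% of all genes tested lower and 6.96% higher at that adjusted p. The 3 lower ones were the auxin efflux carrier LOC8258189, SAU50 (LOC107260773) and LOC8260421, with log2 fold changes of -1.37, -1.94 and -1.91. These are differences of log2(FPKM + 1), in which the added 1 shrinks the fold changes of low genes such as SAU50 and LOC8260421. The study's fold changes came from read counts, so missing -2 here does not mean missing the study's threshold. The auxin gene that was higher without D2 was the ARF gene LOC8274635, with a log2 fold change of 1.41. The study lists this gene and the ARF gene LOC8259066 as lower in 071113, which these values do not show. LOC8274635 had 46.4, 20.1 and 41.1 FPKM in D1, D2 and D3, against 16.6, 11.1 and 21.2 FPKM in L1, L2 and L3. For LOC8259066 the log2 fold change without D2 was 0.357 (adjusted p = 0.229 in limma). The reason for the difference was not tested. Over the 6 libraries, none of the study's other named genes passed an adjusted p of 0.05. Without D2, 3 of 5 cell cycle genes tested and 1 of 3 expansins were lower at that adjusted p. In the same fit, 4 of 4 lignin genes tested and 5 of 5 cell wall and protein folding genes were higher. The study picked these genes from these libraries, so nothing is read from these counts. The part of the cell cycle and expansin genes, whose levels in D2 did not lie with D1 and D3, in the results for D2 was not tested.

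D2 separated the 68 genes from a far larger number of rows. With the conditions applied to D1 and D3 only, 1038 rows qualified, and 68 of them (6.55%) still did when D2 was added. To place D2 in each gene, its log2(FPKM + 1) was scaled so that 0 is the mean of D1 and D3 and 1 is the Zhuansihao mean. The median position of D2 was 0.0911 in the 68 genes and 1.33 in the 970 rows that dropped out. Of those 970 rows, D2 lay nearer to Zhuansihao in 97.7%, and 756 of the 1038 rows (72.8%) had D2 at or above the Zhuansihao mean. This split follows in part from the rule, which read D2.

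**Figure D3:**
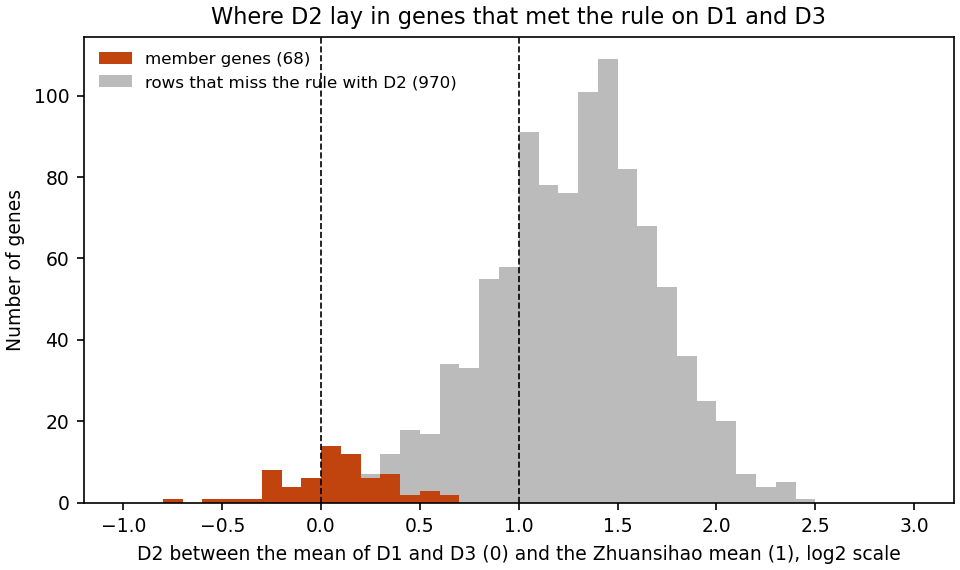
Number of genes (vertical axis) by the position of D2 between the mean of D1 and D3 (0) and the Zhuansihao mean (1) on the log2(FPKM + 1) scale (horizontal axis), for the 68 chosen genes and for the 970 rows that qualified on D1 and D3 but not with D2. The chosen genes lie around 0, with a median of 0.0911, and the other rows lie around a median of 1.33.

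Even within the set, D2 was not always at the dwarf level. It lay nearer to the Zhuansihao mean in 5 of the 68 genes (7.35%), namely LOC8265897, LOC8265899, LOC8276345, LOC8281616 and LOC8265205, the last 3 named after their values were seen. At the other end, it lay at or below the mean of D1 and D3 in 23 genes. LOC8281616 had the highest position, 0.674, with 5.27, 43.4 and 27.4 FPKM in D1, D2 and D3, against 77.1, 67.8 and 92.4 FPKM in L1, L2 and L3. D3 was also well above D1 there, so D2 was not the only dwarf library well above D1. Across the 68 genes the correlation of log2(FPKM + 1) was 0.918 between D1 and D2 and 0.959 between D2 and D3, close to the 0.938 between D1 and D3. It was nearly as high between D2 and L1, at 0.904. A correlation across genes does not register a level difference that the genes share, so it does not place D2 between the varieties. In level, D2 held 0.289% of the FPKM sum in these genes, beside 0.200% in D1, 0.234% in D3 and 0.751% in L1. The rule read D2, so this nearness to D1 and D3 follows in part from it.

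Each library in turn was left out of the conditions and then read. With D1 left out, 96 rows qualified on the other 5 libraries, and D1 was below every Zhuansihao library in 90 of them (93.8%), beside 41.0% of all rows at the floor. D3 was on the dwarf side in 86 of 94 rows (91.5%, beside 40.7%). For D2 it was 187 of 1038 rows (18.0%, beside 34.1%), so D2 took the dwarf side less often in the rows chosen by D1 and D3 than in rows at large. Among the high-stalk libraries, L2 was above every dwarf library in 77 of 82 rows (93.9%, beside 25.4%) and L3 in 116 of 136 (85.3%, beside 18.9%). L1 was in 130 of 257 rows (50.6%, beside 23.4%). For rows higher in the dwarf libraries, chosen with the conditions exchanged, D2 was on the dwarf side in 363 of 928 rows (39.1%, beside 32.8%). These are descriptions with 1 library each, and no test was made.

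**Figure D4:**
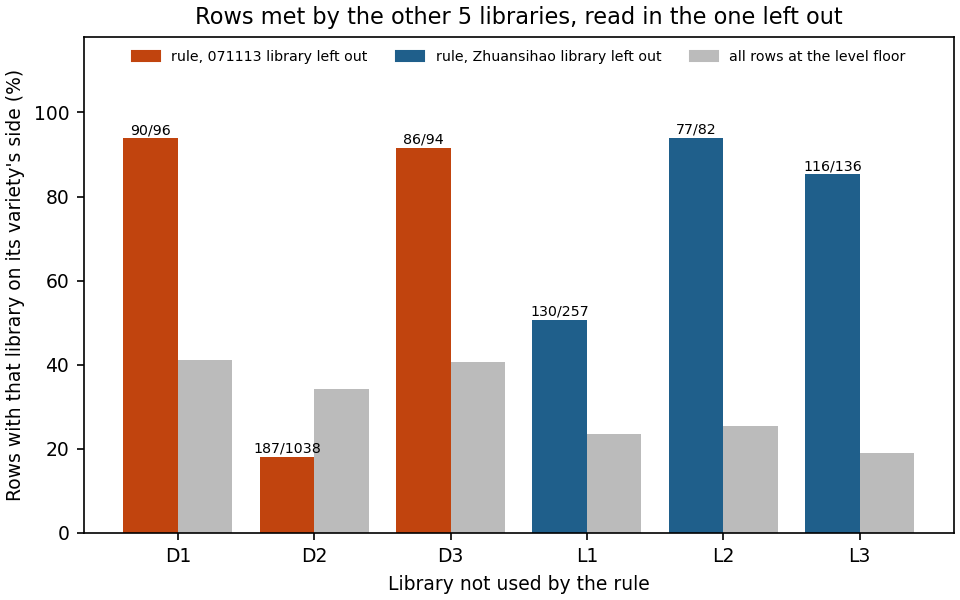
For each library (horizontal axis), the coloured bar gives the percentage of rows qualifying on the other 5 libraries in which the left-out library lay on its own variety's side (vertical axis, with counts above the bars), and the grey bar gives the same percentage over all rows at the level floor. D1, D3, L2 and L3 lie at 85.3% to 93.9%, L1 at 50.6%, and D2 at 18.0%, under its grey bar of 34.1%.

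Position along the genome was not used to choose the genes. In RefSeq gene order, 10 of the 64 matched genes (15.6%) had another of the set within 10 places, beside 961 of 18253 other matched rows (5.26%) and 740 of 13688 other rows at the floor (5.41%). Within 5 places it was 8 genes (12.5%, beside 2.64%) and within 20 places 15 genes (23.4%, beside 10.1%), both windows being added after the first count. For genes higher in all dwarf libraries, 29 of 115 (25.2%) had another of their own kind within 10 places, beside 9.36%. The 93 genes of the table lying next to a chosen gene had a median log2 difference of -0.15 (071113 minus Zhuansihao), beside -0.06 in other rows at the floor, and every dwarf library was below every Zhuansihao library in 12 of them (12.9%, beside 7.52%). Gene copies that lie side by side can share reads. The sequences of these neighbours were not compared, and the part of shared reads was not tested.

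The 10 neighbouring genes fell into 4 places of the genome. LOC8265899 and LOC8265897 were adjacent, and their values are given above. The genes beside them, named after their values were seen, did not share the pattern: LOC8265900 had 13.8, 11.9 and 14.9 FPKM in the dwarf libraries, against 13.1, 12.7 and 13.2 FPKM in the high-stalk libraries, and LOC8265895, 2 places beyond LOC8265897, had 67.9, 79.0 and 69.7 FPKM in the dwarf libraries, against 85.2, 82.8 and 75.6 FPKM in the high-stalk libraries. LOC8277508 and LOC8277511 lay 3 places apart. LOC8277508 had 0.763, 1.27 and 0.781 FPKM in D1, D2 and D3, against 3.08, 2.97 and 3.21 FPKM in L1, L2 and L3. LOC8277511 had 1.62, 4.13 and 1.77 FPKM in D1, D2 and D3, against 16.1, 19.3 and 10.4 FPKM in L1, L2 and L3. Both were low genes with D2 the highest dwarf library, and the ratio of LOC8277511 was 2.21 in all, 4.10 without D2 and 3.34 without L3. LOC8285028 and LOC8283799 lay 7 places apart, and L2 was the highest library of both: LOC8285028 had 2.30, 2.67 and 1.11 FPKM in the dwarf libraries, against 12.0, 45.5 and 9.85 FPKM in the high-stalk libraries.

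One stretch held 4 of the genes. LOC8262533 and LOC8264364 were adjacent there, and LOC8269624 and LOC8258207, 2 places apart, followed 6 places further on. LOC8262533 had 11.5, 31.0 and 21.9 FPKM in the dwarf libraries, against 79.6, 160.2 and 132 FPKM in the high-stalk libraries, and LOC8264364 had 40.6, 56.2 and 71.7 FPKM in the dwarf libraries, against 123, 214 and 139 FPKM in the high-stalk libraries. In both, L1 was the lowest and L2 the highest Zhuansihao library, and the ratio of LOC8262533, 2.52 in all, was 4.16 without L1. LOC8258207 had 14.1, 8.50 and 7.47 FPKM in the dwarf libraries, against 27.8, 35.8 and 27.3 FPKM in the high-stalk libraries, with a ratio of 1.88 that became 2.98 without D1. Genes between and beside them, named after their values were seen, did not all go the same way. LOC8261792 was lower in each dwarf library without reaching the threshold, at 8.61, 76.9 and 19.6 FPKM in D1, D2 and D3, against 123, 98.8 and 181 FPKM in L1, L2 and L3. LOC8258204 was higher in each, at 163, 91.6 and 140.4 FPKM in D1, D2 and D3, against 34.0, 23.4 and 70.0 FPKM in L1, L2 and L3. The stretch was therefore not lower throughout in the dwarf libraries.

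**Figure D5:**
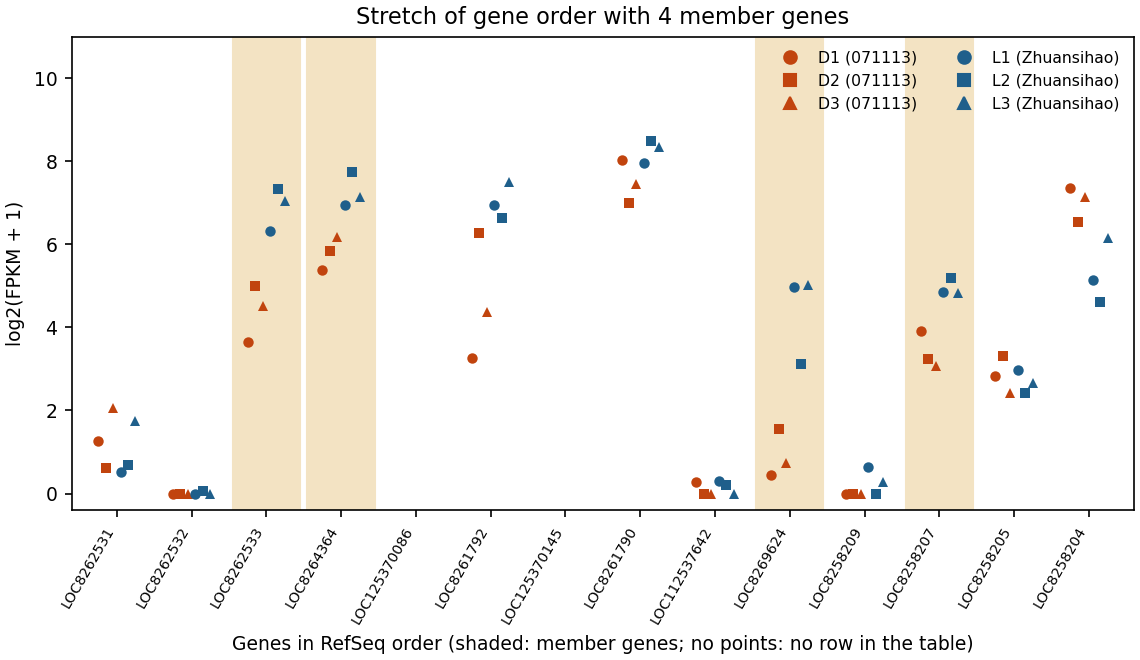
Levels (vertical axis, log2(FPKM + 1)) in the 6 libraries for consecutive genes in RefSeq order (horizontal axis), with the 4 chosen genes shaded and no points where the table has no row. In each shaded gene the 3 dwarf libraries lie below the 3 Zhuansihao libraries, LOC8261790 overlaps between the varieties, and LOC8258204 is higher in the dwarf libraries.

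A test across all genes on the same contrast is given as a description only, since the contrast chose the genes. In limma on log2(FPKM + 1) with Benjamini-Hochberg adjustment, over 6 libraries and 16236 genes, 2 genes (0.0123%) passed both thresholds in the lower direction, an adjusted p below 0.05 with a log2 fold change of -2 or less. Both were in the set. LOC107262380 had a log2 fold change of -5.07 (adjusted p = 0.00360) and LOC8265919 one of -3.39 (adjusted p = 0.0266). With dwarf levels at or near 0, the size of both fold changes depends on the 1 added to each FPKM. At an unadjusted p under 0.05, 677 genes (4.17%) were lower, all 68 among them, which the rule makes nearly certain. Without D2, over 15925 genes, 189 genes (1.19%) were lower past both thresholds, and 21 of the 68 were among them. Nothing is read from these shares. LOC8270280 had an adjusted p of 0.0952 over the 6 libraries, with a log2 fold change of -4.41, and 0.0132 without D2, with a log2 fold change of -4.50.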

How the data were processed

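The authors isolated poly(A) RNA, sequenced 6 libraries and deposited 1 table of FPKM per gene and library, with no pooling of replicates and with D2 included. Which aligner, counter, annotation and build were used is not given in the sources used here. In the study, read counts were tested with DESeq2 and without D2, but FPKM values are not counts, so limma was used here. Depth in reads is unknown. Relative depth was read from repeated ratios of values under 0.5 FPKM, and no counting interval can be given.

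Groups come from the sample labels (3 libraries per variety). The gene set, the lists and the neighbour windows were chosen with earlier results of these data known. Each of the 18875 rows, with 18781 distinct names, was kept as a gene. RefSeq (assembly ASM1957865v1) matched 18431 rows by symbol and served only for names and gene order, since its build may differ from that of the authors.

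The set was found with Python 3.11.15, pandas 2.3.3 and numpy 2.4.6, and figures were drawn with matplotlib 3.10.9. For the test, genes reaching 1 FPKM in 2 or more libraries were fitted on log2(FPKM + 1) in limma 3.58.1 (R 4.3.3), allowing the variance to follow the mean, and p-values were adjusted by Benjamini-Hochberg. The set rule was checked on made-up rows with known answers, and the test on simulated libraries. The spread of the simulated libraries was capped and none stood apart as D2 does. That check therefore does not show how the test behaves in these data. Genes named in the text are those with a name, the 10 largest ratios, the 10 highest lowest-Zhuansihao levels, genes at 0 in all dwarf libraries, genes near another of the set in gene order and the 3 rows nearest the ratio threshold on each side; others are marked where they appear. Other level floors, pseudocounts, ratios, scalings, filters, a replicate block and leaving out each library were tried. Protein and promoter features were not analysed here.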

Additional observations from a re-analysis of the deposited data

How the results depend on the processing

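The number of genes in the set depended most on D2. It was 68 with all libraries, 187 at a looser ratio threshold (the 68 included) and 26 at a ratio of 2, and leaving out single libraries gave between 82 and 1038 genes, with 1038 without D2, 257 without L1 and 136 without L3. Other level floors, pseudocounts and scalings gave 55 to 74. A similar count did not mean the same genes. Median-ratio scaling gave 65 genes, 62 of them among the 68, and quantile normalization gave 72, 57 of them among the 68. In gene order, the share with a neighbour in the set was 12.5% within 5 places and 23.4% within 20, against 15.6% within 10. The limma count of lower genes over 6 libraries was 2, and it was 0 with a replicate block (472 lower at an unadjusted p under 0.05) and between 0 and 189 without single libraries, the 189 being without D2. Where it was 0, between 271 and 618 genes were lower at an unadjusted p under 0.05. Without D2, the count of 189 became 352 with a pseudocount of 0.1, 0 with a replicate block (2593 lower unadjusted) and between 0 and 164 without a further library, with 0 without D1 (1449 lower unadjusted) or D3 (1676). The library numbers do not pair the varieties: same-numbered libraries deviated from their variety means with correlations of -0.47 (D1 and L1), -0.55 (D2 and L2) and 0.33 (D3 and L3).

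Of 270 ratios recomputed for 27 named genes, 0 reversed and 8 fell under 1.5, the lowest at 1.21. Most of them could not have reversed. Leaving out a library can only keep or raise a ratio, and another pseudocount cannot turn it around. Only the other scalings could have reversed one, so the 0 says little about stability. Without some library, 13 of the genes moved by over 1.5 times, which could only be upward. For LOC8264529 the ratio of 2.05 became 3.32 without D3 and 3.76 without L1, and for LOC8265588 the ratio of 1.76 became 2.88 without L1. Keeping 1 gene per family of near-identical proteins was not run. FPKM values hold no read counts, so differences in genes near 0 have no counting error attached. The cause of these movements was not tested.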
